A study of Mus musculus with 10 samples.

Results

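The arrays titled CSC, for cancer stem cells, were set against the arrays titled TEC, other sorted cells of mouse mammary tumours of the same genotype. There are 2 CSC and 2 TEC arrays among the 10 of the series, and they were chosen by their titles alone. All 12394 genes with a single gene symbol were used, each represented by its probe set of highest average level across the 10 arrays. Every value is a log2 intensity, so a difference of 1 is a 2-fold change. All mice were of the FVB/N strain. CSC and TEC cells came from tumours of the genotype written WAPCre-DNbcatn;HGF, which the study calls Wnt-Met. It joins a Cre recombinase under the promoter of Wap, a milk protein gene active in secretory mammary epithelium, with an allele written DNbcatn and with HGF, the ligand of the receptor Met. Both groups carry these alleles, and neither has a counterpart from a normal gland. Fibroblasts of the tumours (CAF, 3 arrays) and of wild-type control glands (COF, 3 arrays) served as reference levels and entered the estimate of the spread. The cells were taken straight from sorting to RNA, with no treatment given. Neither the sorting gates nor the ages of the mice are given in the sources used here. The sorted-cell field of both TEC samples reads TEFs, against TEC in their titles. Nothing in the labels says whether the arrays of a group came from separate mice or pools, so p-values measure only the spread between these samples, which may be technical.

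The mammary epithelium is a bilayer. Its luminal cells include progenitors that give rise to milk-secreting alveolar cells, and its basal cells are contractile and hold cells with stem cell activity. Wnt signals stabilise beta-catenin, which switches on target genes with TCF factors and maintains basal stem cells, and HGF drives growth and movement of epithelial cells through Met. Cancer stem cells are defined by their capacity to found a new tumour and are usually enriched by surface antigens such as Cd24a, Itgb1 and Itga6.

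The levels of cell type markers were read on each array to check the labels. The median of 19 pan-epithelial genes was 10.97 and 11.16 on the CSC arrays, 8.83 and 9.25 on the TEC arrays, and 5.48 to 6.55 on the 6 fibroblast arrays. Both tumour cell groups therefore carried epithelial transcripts well above the fibroblasts, at a higher level in CSC. The median of 15 pan-leukocyte genes ran the other way, at 10.25 and 9.25 in CSC, 12.83 and 12.43 in TEC, and 5.36 to 7.44 on the fibroblast arrays. Fibroblast genes split the TEC arrays, with a median over 19 genes of 9.13 on TEC replicate 1 and 11.68 on TEC replicate 2, against 8.43 and 8.56 in CSC and 13.27 to 13.63 on the fibroblast arrays. By these markers both TEC arrays held epithelial and strong leukocyte signal, and the second held fibroblast signal as well. The CSC arrays held epithelial signal and also leukocyte signal above the fibroblasts. The median of 18 core macrophage genes was 11.19 and 10.93 in CSC, 10.65 and 10.67 in TEC, and 5.27 to 6.66 in fibroblasts. In RNA of a whole sorted population, fewer cells of a type and less RNA per cell cannot be told apart.

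**Figure D1:**
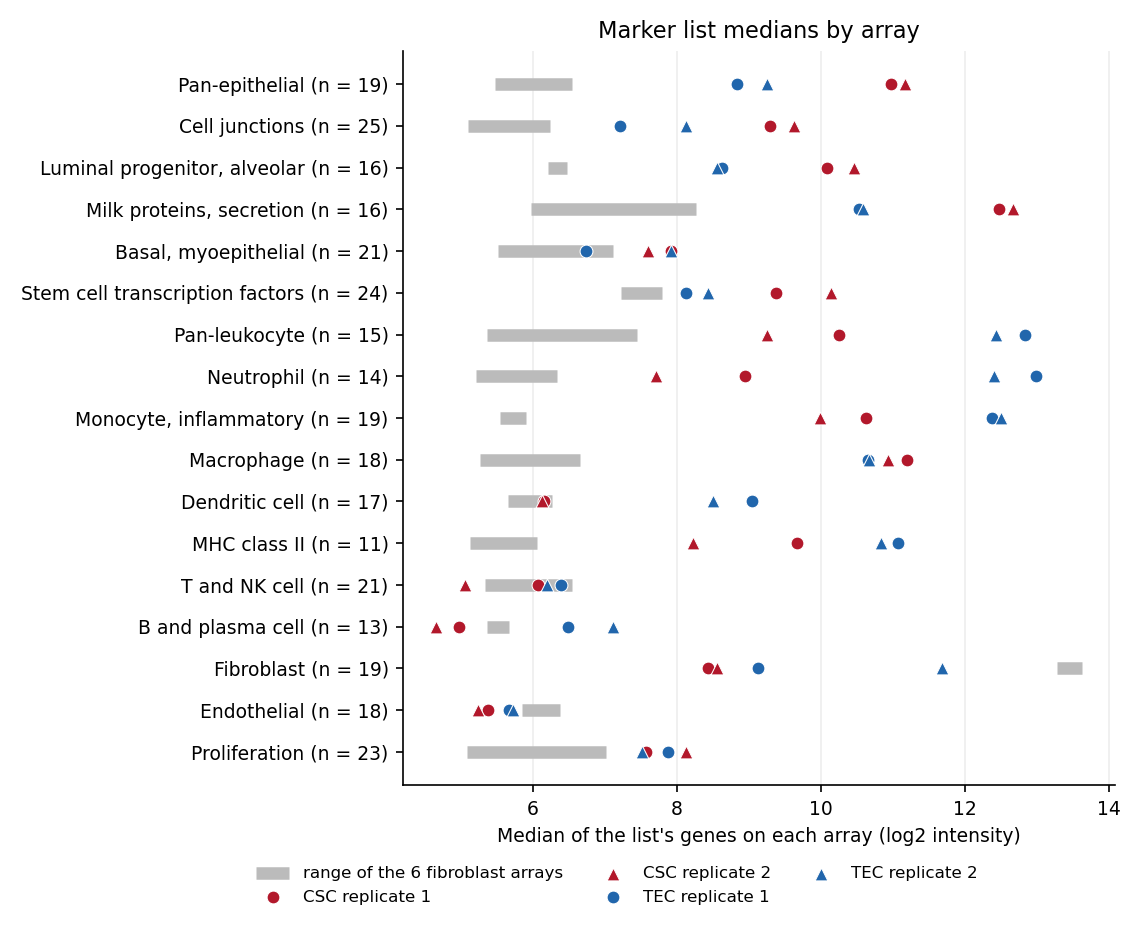
Each row is a list of marker genes, and each symbol is the median of its genes on 1 array (log2 intensity); red is CSC, blue is TEC, circles are replicate 1, triangles are replicate 2, and grey bars span the 6 fibroblast arrays. Pan-epithelial, junction, luminal progenitor and milk lists lie to the right in CSC. The basal list overlaps (7.92 and 7.6 in CSC, 6.74 and 7.92 in TEC). Leukocyte lists lie to the right in TEC, apart from the macrophage list (11.19 and 10.93 in CSC, 10.65 and 10.67 in TEC). The fibroblast median is 9.13 on TEC replicate 1 and 11.68 on TEC replicate 2.

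Over all genes, 5786 of 12394 (46.7%) differed between CSC and TEC at an adjusted p under 0.05 by limma. Of these, 3300 (26.6%) were higher in CSC and 2486 (20.1%) were higher in TEC, and the median difference of all genes was 0.00. A difference of at least 1 was found for 1228 genes higher in CSC (9.91%) and 1149 higher in TEC (9.27%). With TEC replicate 1 as the only TEC array, 6039 genes (48.7%) were called, of which 3283 were higher in CSC (26.5%) and 2756 higher in TEC (22.2%). With TEC replicate 2 alone 5352 (43.2%) were called, 2984 higher in CSC (24.1%) and 2368 higher in TEC (19.1%). All 3 fits called 2565 genes higher in CSC (20.7%) and 1739 higher in TEC (14.0%). These shares are the background for every list count below. In a fit with a single TEC or CSC array, the spread comes only from the other groups. Its calls and p-values assume that the lone array varies as those groups do. The TEC arrays differed from each other more than any other replicate pair (standard deviation 0.55), so calls against a single TEC array are less certain than their p-values state. When only the 4 CSC and TEC arrays were fitted, with the spread taken from them, 3013 genes were called, and 92 of the 361 named genes called here were lost. The arrays also differed in RNA measures: the 3' minus 5' signal of Actb was 0.32 and 0.46 in TEC, 0.63 and 0.62 in CSC and 0.59 to 0.76 in the fibroblasts, and the part of this in the results was not tested.

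**Figure D2:**
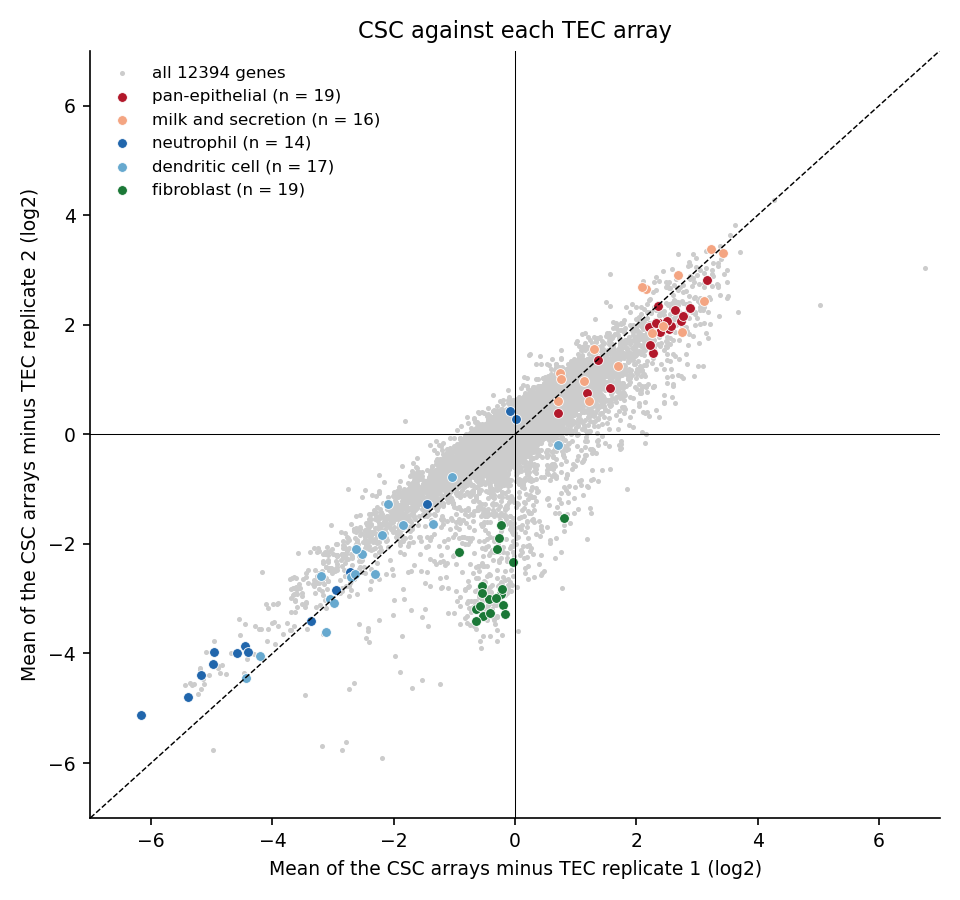
Each point is a gene, with the mean of both CSC arrays minus TEC replicate 1 on the x axis and minus TEC replicate 2 on the y axis (log2); grey is all 12394 genes, colours are 5 lists and the dashed line marks equal differences. Epithelial and leukocyte genes lie along the line, while the 19 fibroblast genes lie far below it.

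Epithelial identity genes were higher in CSC across the board. All 19 measured pan-epithelial genes were called, against 26.6% of all genes, with a median difference of 2.21. Against TEC replicate 1 alone the median was 2.38, with 19 called, and against TEC replicate 2 alone it was 1.98, with 18 called. Epcam, an epithelial adhesion molecule, stood at 13.48 and 13.41 in CSC and 10.7 and 11.39 in TEC. Cdh1, which encodes E-cadherin, stood at 12.53 and 12.45 in CSC and 9.95 and 10.56 in TEC. In both, the groups did not overlap and the fibroblast arrays were lower still. The differences were 2.4 ± 0.38 for Epcam and 2.23 ± 0.48 for Cdh1 (adjusted p 0.000778 and 0.00463 by limma). Values after ± are standard errors of the limma fit, here and below (n = 2 CSC and 2 TEC arrays). The luminal keratins Krt8, Krt18 and Krt19 were higher by 2.12 ± 0.43, 2.21 ± 0.47 and 2.46 ± 0.2. Esrp1, a splicing regulator of the epithelial state, was higher by 2.6 ± 0.21 (adjusted p 2.46e-05), and Spint2, an inhibitor of serine proteases at the cell surface, by 2.08 ± 0.12 (adjusted p 6.23e-06). Ovol1, an epithelial transcription factor, had the lowest difference of the list, 0.55 ± 0.17, and its call ended when CSC replicate 1 (adjusted p 0.134) or TEC replicate 1 was left out.

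Cell junction genes followed the same direction. Of 25 measured genes of tight junctions, adherens junctions and desmosomes, 22 were higher in CSC and 1, Dsc3, was higher in TEC, with a median difference of 1.84 (2.06 against TEC replicate 1 and 1.49 against TEC replicate 2). The tight junction genes Cldn7, Marveld2 and Ocln had differences of 2.99 ± 0.28, 2.59 ± 0.15 and 2.36 ± 0.24. Cldn7 stood at 12.2 and 12.1 in CSC and 8.98 and 9.34 in TEC, and Ocln at 9.29 and 9.08 in CSC and 6.39 and 7.25 in TEC. No array of either group reached the level of the other group in these genes. Cldn8 had the greatest difference of the list, 3.02 ± 0.35, with 8.54 and 9.92 in CSC. Among desmosome genes, Dsg2, a desmosomal cadherin, was higher by 2.63 ± 0.27 (adjusted p 7.36e-05) and Pkp2 by 2.58 ± 0.19, or by 1.71 as the mean over its probe sets. Desmoplakin, Dsp, at 11.36 and 10.92 in CSC and 9.89 and 11.08 in TEC, was not called (adjusted p 0.337), and TEC replicate 2 lay between the CSC arrays. In the list of 19 genes of integrins, laminins and their anchors to the cell, 9 were higher in CSC and 2 were higher in TEC. Col17a1, Lama3, Lamb3 and Itgb4 of the contacts with the basement membrane were higher in CSC by 2.65 ± 0.21, 2.43 ± 0.21, 1.75 ± 0.12 and 1.56 ± 0.16, whereas Plec, a linker in the same contacts, was at 10.13 and 9.9 in CSC and 10.02 and 10.03 in TEC and was not called. The second count ran from 1 to 5 as single arrays were left out and was 5 without TEC replicate 1.

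Promoters of these epithelial and junction genes were searched for a short sequence. It was chosen because factors that lower epithelial genes are known to bind it, so the sequence and the genes are not independent choices. The 6 letters searched were CAGGTG, read on both strands (CACCTG is the same site on the other strand), and no other motif was searched. This is an E-box, the kind of site that Zeb and Snail repressors of epithelial genes are known to bind. RefSeq promoters (GRCm38.p6, 250 bases before to 50 after each start) matched 21 of the 40 genes, and 15 of those genes (71.4%) held the letters in at least 1 promoter. Among all measured genes with a promoter the share was 2194 of 9888 (22.2%), and among all promoters of the table it was 6640 of 32851 (20.2%). For 15 pan-leukocyte genes, 3 of 11 matched genes held it (27.3%). Of the lists mostly higher in CSC, 4 of 12 matched milk genes (33.3%) and 4 of 18 matched respiratory chain genes (22.2%) held it. Base composition was not matched, and a match is only a run of letters. The 100 bases before the start are printed 5′ to 3′ on the strand of the gene, with the letters of the E-box in capitals, for 5 genes that hold them there.
Cldn7, chr11:69965321-69965420, plus strand: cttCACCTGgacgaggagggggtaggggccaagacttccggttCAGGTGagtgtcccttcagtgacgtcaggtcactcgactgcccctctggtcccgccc
Rab25, chr3:88548280-88548379, minus strand: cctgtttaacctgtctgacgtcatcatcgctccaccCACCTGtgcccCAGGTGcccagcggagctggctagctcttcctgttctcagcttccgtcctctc
Ocln, chr13:100552499-100552598, minus strand: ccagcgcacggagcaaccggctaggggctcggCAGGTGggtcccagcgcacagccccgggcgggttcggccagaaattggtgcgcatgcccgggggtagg
Cldn4, chr5:134946935-134947034, minus strand: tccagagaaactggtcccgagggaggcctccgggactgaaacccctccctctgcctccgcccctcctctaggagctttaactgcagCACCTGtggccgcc
Epcam, chr17:87635879-87635978, plus strand: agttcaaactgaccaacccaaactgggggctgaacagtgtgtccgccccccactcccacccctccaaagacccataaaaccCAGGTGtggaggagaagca
Cldn7 and Rab25 each held 2 copies in these bases and the other 3 genes held 1 each. Cldn7 and Ocln each have another promoter, not printed, that held none in the 100 bases before its start. Rab25, a small GTPase of epithelial recycling vesicles, was higher in CSC by 1.2 ± 0.2, and Cldn4 by 1.88 ± 0.41. Zeb1, a repressor whose family binds such boxes, was lower in CSC, at 5.76 and 5.38 in CSC and 8.43 and 8.44 in TEC. Its difference was 2.86 ± 0.16 in favour of TEC (adjusted p 6.23e-06), or 1.46 as the mean over its probe sets. The fibroblast arrays held Zeb1 at 9.22 to 10.13, above all 4 tumour cell arrays. Of the related repressors, Zeb2 and Snai1 were also higher in TEC, by 1.51 ± 0.21 and 0.97 ± 0.23, but Snai2 was higher in CSC by 2.0 ± 0.51 (adjusted p 0.0102, or 0.0707 without CSC replicate 1), and by 1.06 against TEC replicate 2 alone. Binding to these promoters was not measured.

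Genes of luminal progenitor and alveolar cells were higher in CSC in 9 of 16 measured members, with a median of 1.09, and 2 (Cd14 and Itgb3) were higher in TEC. Elf5, a transcription factor that sets the alveolar fate, stood at 12.52 and 12.84 in CSC and 9.48 and 9.29 in TEC. Gata3, a regulator of the luminal lineage, stood at 10.1 and 10.54 in CSC and 7.47 and 8.21 in TEC. Elf5 was higher by 3.29 ± 0.39 (adjusted p 0.000156) and Gata3 by 2.49 ± 0.33 (adjusted p 0.00032), with no overlap of arrays. Prom1 and Sox10, 2 further members of the list, were higher by 1.57 ± 0.2 and 1.95 ± 0.13. The mean over probe sets gave 0.96 for Sox10. Kit, a receptor of luminal progenitors, was at 9.07 and 10.37 in CSC and 8.96 and 8.77 in TEC, and was not called (adjusted p 0.0937). Aldh1a3, another progenitor marker, was at 6.24 and 5.74 in CSC and 6.04 and 7.15 in TEC, with overlapping arrays and no call. Of 10 hormone-sensing genes, 2 were higher in CSC (1 to 4 as single arrays were left out) and 1 in TEC. The hormone receptor genes Esr1 and Pgr showed little signal: Esr1 lay between 3.78 and 4.28 and Pgr between 3.10 and 3.22 on the 4 arrays, below the lower quartile of the arrays (5.05 to 5.26), and neither was called.

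Milk genes were mostly higher in CSC. Their list median was 12.47 and 12.66 in CSC and 10.53 and 10.58 in TEC, against 5.97 to 8.26 on the fibroblast arrays, although single members such as Mfge8 (10.34 and 10.82 in TEC, 11.05 to 11.77 in the fibroblasts) did not exceed the fibroblasts in TEC. Of 16 measured, 11 were called higher in CSC and none higher in TEC, with a median of 2.13. Lalba, alpha-lactalbumin, stood at 12.2 and 12.39 in CSC and 9.6 and 9.38 in TEC, and Wap itself, whose promoter drives the Cre, stood at 14.02 and 14.02 in CSC and 11.77 and 12.18 in TEC. Lalba was higher by 2.8 ± 0.13 (adjusted p 4.35e-06) and Wap by 2.04 ± 0.16 (adjusted p 2.01e-05), and the groups did not overlap. Btn1a1, a protein of milk fat globules, was higher by 3.36 ± 0.17, or 2.0 as the mean over probe sets, and Cel, a milk lipase, by 3.31 ± 0.18. Csn2, a casein, was at 14.62 and 14.68 in CSC and 13.94 and 14.05 in TEC. Its arrays did not overlap, yet it was not called (adjusted p 0.62). The fibroblast arrays ranged from 5.84 to 11.95 for Csn2 and enter the same estimate of the spread; in the fit of the 4 tumour cell arrays alone its adjusted p was 0.0390, and that of Csn3 was 0.0164.

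Basal genes were divided. Of 21 measured, 7 were higher in CSC (Krt5, Krt14, Krt15, Krt17, Trp63, Mylk and Snai2), with a list median of 0.41, which was 0.41 against TEC replicate 1 and -0.03 against TEC replicate 2. Krt5 was at 11.1 and 10.56 in CSC and 7.97 and 9.0 in TEC, and Krt14 at 12.14 and 11.6 in CSC and 9.36 and 10.27 in TEC. Both CSC arrays were above both TEC arrays, and TEC replicate 2 was above replicate 1. The differences were 2.35 ± 0.29 for Krt5, 2.05 ± 0.31 for Krt14 and 2.09 ± 0.32 for Krt17 (adjusted p 0.000207, 0.000587 and 0.000644). The keratins Krt6a, at 10.78 and 10.87 in CSC and 9.92 and 10.72 in TEC, and Krt6b, at 7.92 and 8.41 in CSC and 8.29 and 9.31 in TEC, were not called. Trp63, the transcription factor of basal cells, was higher by 2.82 ± 0.27 (adjusted p 5.29e-05), or 1.35 as the mean over its probe sets. The contractile genes Cnn1, Myh11 and Oxtr were between 4.05 and 5.28 on all 4 arrays and were not called. Acta2, smooth muscle actin, was at 10.34 and 9.26 in CSC and 10.28 and 10.83 in TEC and was not called either (adjusted p 0.489). The count of basal genes higher in TEC was 2 (Pdpn and Dsc3) and ranged from 0 to 5 as single arrays were left out, with 5 when TEC replicate 1 was missing. Squamous differentiation genes were not higher in CSC as a group: 1 of 16, Serpinb5, was called higher in CSC and 4 higher in TEC, of which Sprr1a had a difference of 1.84 ± 0.35.

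Surface antigens used to sort mammary stem cells did not move together. Itga6 stood at 11.31 and 11.27 in CSC and 8.36 and 8.59 in TEC and was higher in CSC by 2.81 ± 0.26 (adjusted p 4.6e-05). Itgb1 was at 10.37 and 10.23 in CSC and 10.1 and 10.21 in TEC, and Cd24a at 13.54 and 13.65 in CSC and 13.53 and 13.13 in TEC. Neither was called (adjusted p 0.424 and 0.367), with 95% intervals of the CSC minus TEC difference of -0.17 to 0.47 and -0.24 to 0.77. Cd44, a hyaluronan receptor, and Procr, a receptor reported on mammary stem cells, were higher in TEC by 1.26 ± 0.14 and 1.22 ± 0.27 (adjusted p 0.000126 and 0.00499). Cd44 was at 12.01 and 11.67 in CSC and 13.11 and 13.1 in TEC, and the fibroblasts held it at 12.97 to 13.49. Lgr5, a Wnt-linked stem cell receptor, was at 5.46 and 5.3 in CSC and 5.05 and 5.39 in TEC, not called (adjusted p 0.571; 95% interval -0.31 to 0.62). Of the 17 measured stem cell markers, 5 were higher in CSC and 3 in TEC, the latter 6 when TEC replicate 1 was left out. The third was Inpp5d, which is also a leukocyte gene, and its difference was 2.44 ± 0.25.

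Transcription factors tied to stem and progenitor states were called higher in CSC in 13 of 24 measured, with a median of 0.98. Ets1 was the 1 higher in TEC. Elf5, Gata3 and Sox10 of this list are also in the luminal progenitor list, and Sox9 is also among the stem cell markers. The counts of these lists are therefore not independent, and this count does not separate stem cell factors from luminal ones. Sox9 was at 9.45 and 10.37 in CSC and 6.95 and 7.41 in TEC, and Tfap2c at 10.72 and 11.57 in CSC and 7.81 and 8.01 in TEC. Both groups were far apart, and CSC replicate 2 was above replicate 1 in each. Sox9 was higher by 2.74 ± 0.28 and Tfap2c by 3.24 ± 0.29 (adjusted p 7.36e-05 and 3.99e-05). Foxc1, Sox4 and Tfap2a were higher by 2.49 ± 0.33, 2.36 ± 0.28 and 1.75 ± 0.21, and Bcl11a by 1.07 ± 0.12. Myc, also a Wnt target, had a difference of 1.52 ± 0.5 (adjusted p 0.0333), but its call ended with any of 6 single arrays left out; without CSC replicate 2 the difference was 0.56 (adjusted p 0.166). Bmi1, a Polycomb member that supports self-renewal, was higher by 0.88 ± 0.11 (adjusted p 0.000265), whereas Ezh2, at 9.01 and 9.16 in CSC and 8.88 and 8.7 in TEC, was not called. Sox2 was at 2.58 and 2.89 in CSC and 2.67 and 2.84 in TEC, below the lower quartile of the arrays, and was not called.

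**Figure D3:**
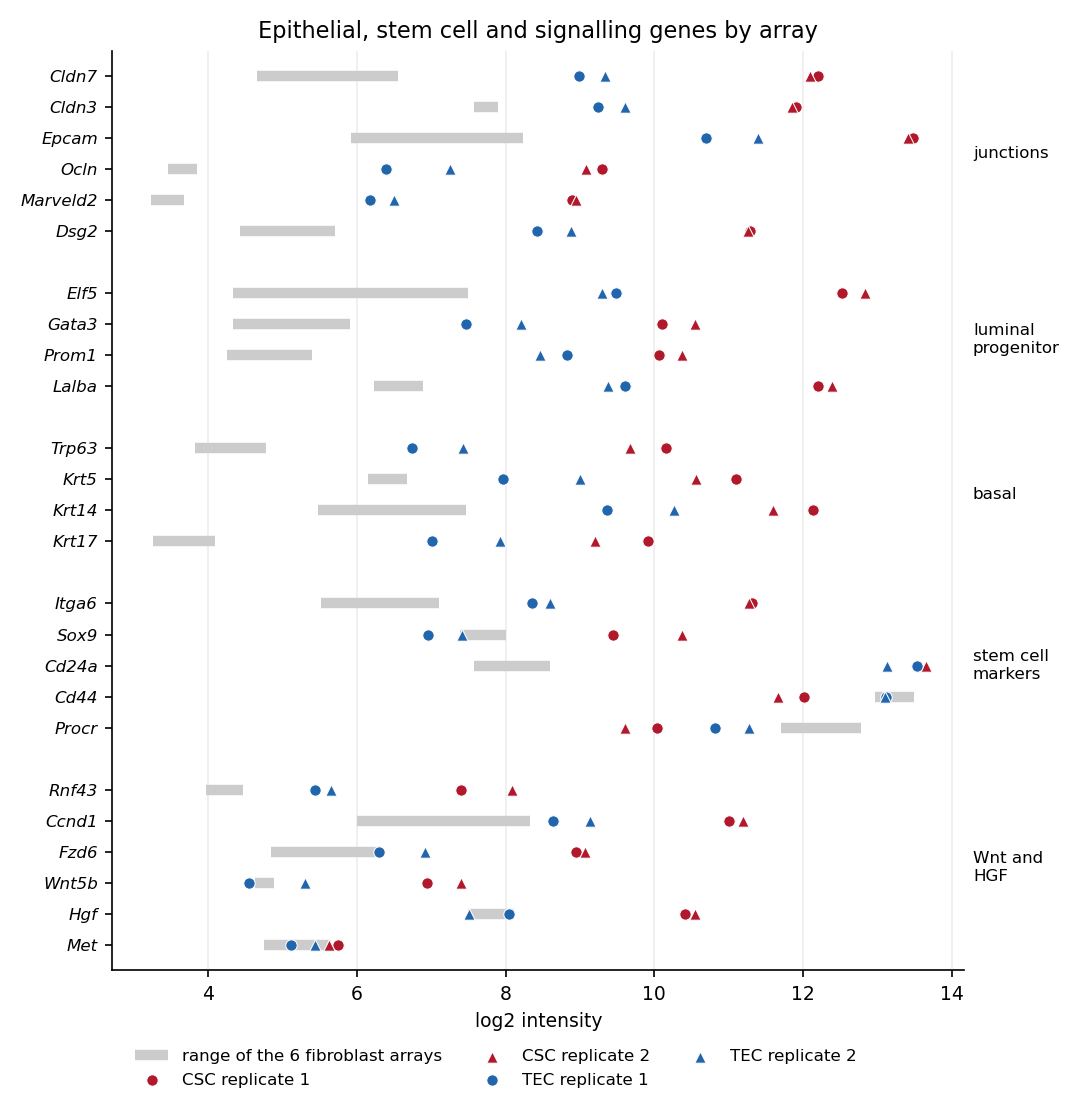
Log2 intensity of 25 genes on each CSC (red) and TEC (blue) array, circles for replicate 1 and triangles for replicate 2, with grey bars for the range of the 6 fibroblast arrays. CSC lies to the right for the genes drawn from the junction and luminal progenitor lists. It also does so for Trp63, Krt5, Krt14 and Krt17, and for Itga6 and Sox9. Of all 25 junction genes measured, 22 were called higher in CSC and 1 higher in TEC. Of all 16 luminal progenitor and alveolar genes, 9 were higher in CSC and 2 in TEC, and Kit and Aldh1a3 were not called. Of all 21 basal genes measured, 7 were called higher in CSC and 2 higher in TEC. Cd44 and Procr lie to the right in TEC, and Met and Cd24a were not called.

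Wnt target and feedback genes were called higher in CSC at a share near that of all genes. Of 21 measured, 7 (33.3%) were called higher in CSC, against 26.6% of all genes, with a list median of 0.16. Rnf43, a feedback inhibitor that removes Frizzled receptors, stood at 7.4 and 8.09 in CSC and 5.44 and 5.65 in TEC. Ccnd1, cyclin D1, stood at 11.01 and 11.19 in CSC and 8.63 and 9.14 in TEC. Their differences were 2.2 ± 0.23 and 2.22 ± 0.23 (adjusted p 7.83e-05 and 8.13e-05), without overlap. Tnfrsf19, a receptor known as a Wnt target, was higher by 2.72 ± 0.42, or 1.49 as the mean over probe sets. Axin2, the most used reporter of beta-catenin activity, was at 8.0 and 8.93 in CSC and 7.14 and 7.39 in TEC. Its difference was 1.2 ± 0.24 (adjusted p 0.00341), ranged from 0.73 without CSC replicate 2 to 1.66 without CSC replicate 1, and was 0.64 as the mean over its probe sets. Lef1, Nkd1, Sp5, Notum and Dkk1 were not called, and Lef1 and Dkk1 lay between 3.11 and 3.78 on all 4 arrays. The 2 genes higher in TEC were Cd44 and Tcf4; this count ran from 1 to 4 as single arrays were left out, with 4 without TEC replicate 1.

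Wnt ligands and receptors were mixed. Wnt5b stood at 6.94 and 7.4 in CSC and 4.54 and 5.3 in TEC, higher in CSC by 2.25 ± 0.23 (adjusted p 7.7e-05), and Porcn, which attaches the lipid that Wnt proteins need for secretion, was higher by 1.33 ± 0.17. Of 19 ligands and secretion genes, 5 were higher in CSC and 3 in TEC; the counts were 3 without TEC replicate 1 and 1 without CSC replicate 2. Wnt5a, at 6.85 and 8.14 in CSC and 4.99 and 6.45 in TEC, was called (difference 1.77 ± 0.48) but not without CSC replicate 2 (difference 1.05, adjusted p 0.114), and the difference was 2.5 without TEC replicate 1. Of 26 receptors and transducers, 12 were higher in CSC and Gsk3b, the kinase that marks beta-catenin for destruction, was the member higher in TEC, by 0.99 ± 0.15 (3 members without TEC replicate 1). The receptor genes Fzd6 and Fzd7 were higher by 2.4 ± 0.21 and 2.03 ± 0.32 (the latter 0.98 as the mean over probe sets), and the co-receptor gene Lrp6 by 1.03 ± 0.17. Ctnnb1, which encodes beta-catenin, was at 12.77 and 12.8 in CSC and 12.78 and 12.62 in TEC, with no difference called (adjusted p 0.565; 95% interval -0.15 to 0.31).

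Hgf, the ligand in the genotype, was higher in CSC. It stood at 10.41 and 10.54 in CSC and 8.04 and 7.5 in TEC, against 7.49 to 8.11 on the fibroblast arrays, so the TEC arrays lay within the range of the fibroblasts and the CSC arrays above it. The difference was 2.71 ± 0.19 (adjusted p 1.3e-05). Met, its receptor, was at 5.75 and 5.62 in CSC and 5.11 and 5.44 in TEC, against 4.75 to 5.65 on the fibroblast arrays, and was not called (adjusted p 0.189; 95% interval -0.12 to 0.94). The proteases St14 and Hpn, which cleave HGF to its active form, were higher in CSC by 2.28 ± 0.23 and 0.67 ± 0.1, and Spint1, which inhibits them, by 1.93 ± 0.18. Plaur, a protease receptor, Grb2, an adaptor, and Ets1 were higher in TEC by 1.66 ± 0.19, 1.17 ± 0.19 and 1.03 ± 0.23. In all, 5 of 16 measured genes of this pathway were higher in CSC and 5 higher in TEC.

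Other signalling lists showed single members rather than whole pathways apart from the ErbB family. In that list 9 of 12 were called higher in CSC, with a median of 1.08. The median was 1.5 against TEC replicate 1 and 0.71 against TEC replicate 2. Ereg lay the other way, higher in TEC by 1.74, and was not called. Erbb3, a receptor without kinase activity of its own, was at 10.43 and 11.12 in CSC and 8.3 and 8.74 in TEC and was higher by 2.26 ± 0.23, or 1.08 as the mean over probe sets, and Erbb2 was higher by 1.25 ± 0.15. Egfr stood at 7.66 and 7.6 in CSC and 6.07 and 8.25 in TEC, so that TEC replicate 1 was below and TEC replicate 2 above both CSC arrays; it was not called over both, whereas against TEC replicate 2 alone it was lower in CSC, with a CSC minus TEC difference of -0.63 (adjusted p 0.0102). In the Notch list, Hes1, a target gene, and Dll1, a ligand, were higher in CSC by 2.09 ± 0.22 and 1.18 ± 0.15, and Notch2 and Lfng were higher in TEC by 1.63 ± 0.17 and 1.41 ± 0.19 (0.9 and 0.92 as means over probe sets), with 5 of 20 called each way. Of 23 TGF-beta and BMP genes, 6 were higher in CSC and 2 in TEC, the latter 4 without CSC replicate 1. Inhbb, an activin subunit, stood at 10.25 and 10.53 in CSC and 7.36 and 7.64 in TEC and was higher by 2.89 ± 0.16, or 1.56 as the mean over probe sets, while Tgfb1 was higher in TEC by 1.27 ± 0.16. Of 15 Hedgehog genes, 3 were higher in CSC and 2 in TEC, and the counts ran from 2 to 5 and from 0 to 4 as single arrays were left out. Boc, a co-receptor of that pathway, was higher in CSC by 1.66 ± 0.3 and kept its call throughout. Of 18 FGF genes, 5 were higher in CSC and 1 in TEC (4 without TEC replicate 1, 0 without CSC replicate 2). Pdgfc, a growth factor for fibroblasts, was higher in CSC by 2.61 ± 0.34 (adjusted p 0.000261).

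The greatest differences in favour of CSC came from genes of several kinds. The rule took the 20 greatest among genes called, not overlapping and called against each TEC array alone. Ttpa, a vitamin E transfer protein, led at 10.06 and 11.29 in CSC and 7.04 and 6.86 in TEC, a difference of 3.72 ± 0.31. Gjb6, a gap junction protein, was higher by 3.59 ± 0.36, and Dpyd, which degrades pyrimidines, by 3.51 ± 0.36, or by 2.29 on the probe set without a shared-sequence suffix. Dpyd was at 7.23 and 7.9 in CSC and 3.86 and 4.25 in TEC, but the fibroblast arrays, at 6.78 to 8.42, were as high as CSC. Pigr, which carries IgA across the epithelium into milk, was higher by 3.4 ± 0.28, with 10.63 and 11.37 in CSC and 7.62 and 7.57 in TEC. Folr1, a folate receptor, Muc15, a mucin of the milk fat globule, and the proton pump subunits Atp6v1c2 and Atp6v1b1 were higher by 3.1 ± 0.23, 3.3 ± 0.45, 3.35 ± 0.18 and 3.09 ± 0.15. Amy1, an amylase made in salivary gland, was the second of the 20, at 7.04 and 9.55 in CSC and 3.27 and 5.93 in TEC, but the COF arrays held it at 9.73 to 10.02. Its call ended without CSC replicate 2 (difference 2.36, adjusted p 0.0561), and Bpifa2, another salivary gene, stood at 9.17 and 11.61 in CSC and 3.64 and 7.35 in TEC, with an adjusted p of 0.0794 without that array. The other genes of the 20 were Acaa1b, Clca3a2, Enpp3, Lao1, Plscr2, Rab17 and Tc2n, with differences between 3.11 and 3.30 (1.72 for Enpp3, 2.04 for Rab17 and 2.01 for Tc2n as means over probe sets), beside Btn1a1, Cel, Elf5 and Tfap2c described above. Enpp3 was at 9.6 and 10.33 in CSC and 6.51 and 7.04 in TEC, and the fibroblasts reached 10.1.

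Metabolic and growth machinery genes were higher in CSC by smaller steps. Of 20 lipid synthesis genes, 16 were higher in CSC and 1, Elovl5, in TEC, with a median of 1.06. Scd1, which desaturates fatty acids, was at 13.41 and 13.31 in CSC and 10.8 and 11.17 in TEC, and Fasn, fatty acid synthase, at 11.38 and 11.15 in CSC and 8.73 and 9.18 in TEC. Their differences were 2.38 ± 0.14 and 2.31 ± 0.15, and Srebf1, a transcription factor of this pathway, and Acly were higher by 2.07 ± 0.13 and 1.54 ± 0.1. In the respiratory chain 19 of 24 were higher in CSC and none in TEC, with a median of 0.60. Uqcrc2 of complex III led at 11.81 and 11.94 in CSC and 10.63 and 10.81 in TEC, and Sdha of complex II was higher by 0.88 ± 0.11. Of 18 ribosome and nucleolar genes 11 were higher in CSC, with a median of 0.40, led by Nop58 (1.3 ± 0.15) and Npm1 (1.17 ± 0.1). Abcg2, a drug efflux pump used to mark side population cells, was at 10.01 and 10.46 in CSC and 7.54 and 7.82 in TEC, a difference of 2.55 ± 0.16 (adjusted p 8.18e-06). Of 22 aldehyde dehydrogenase and detoxification genes, 5 were higher in CSC and 7 in TEC. Aldh1a1 and Aldh1a3, aldehyde dehydrogenases used to mark stem cells, were not called, and Aldh1a2 was higher in TEC by 3.02 ± 0.2. Glycolysis and hypoxia genes leaned to TEC, with 10 of 21 higher there and 2 higher in CSC; the lactate exporter gene Slc16a3 was higher in TEC by 2.98 ± 0.24 and Egln3, a sensor of oxygen, by 2.32 ± 0.3, whereas Car12, a carbonic anhydrase, was higher in CSC by 2.27 ± 0.28.

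Few proliferation genes were called. Mki67 was at 9.77 and 10.12 in CSC and 10.02 and 9.83 in TEC, with a difference of 0.02 ± 0.6 (adjusted p 0.984; 95% interval -1.34 to 1.38). The fibroblast arrays, which share the estimate of the spread, ranged from 4.71 to 8.30 for this gene. Of 23 measured genes 1, Cdc20, was called higher in CSC and 1, Ccne2, higher in TEC, and neither call held with every array left out in turn; without CSC replicate 1 there were 4 higher in CSC. DNA repair genes were higher in CSC in 8 of 16, with Chek2 at 7.03 and 7.81 in CSC and 5.71 and 5.67 in TEC, a difference of 1.73 ± 0.25 (adjusted p 0.000496). Cdkn1a and Mdm2, targets of p53, were higher in TEC by 1.48 ± 0.24 and 0.83 ± 0.13. These were the only 2 of that list higher in TEC with all arrays, against 4 without TEC replicate 2.

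Leukocyte genes made up the other side of the comparison. All 15 pan-leukocyte genes were higher in TEC, against 20.1% of all genes, with a median difference of 2.18. It was 2.41 for TEC replicate 1 and 1.95 for TEC replicate 2, with 14 and 13 called, and 11 were called without CSC replicate 2. Lsp1, a leukocyte protein that binds actin, was at 8.65 and 7.87 in CSC and 12.21 and 12.09 in TEC, but the fibroblasts held it at 10.03 to 10.96. Itgb2, the common chain of leukocyte integrins, was at 10.43 and 10.06 in CSC and 13.04 and 12.59 in TEC, against 4.71 to 6.22 on the fibroblast arrays. The differences were 3.89 ± 0.22 and 2.57 ± 0.22 (adjusted p 6.23e-06 and 2.97e-05). Ptprc, which encodes CD45, the antigen used to gate leukocytes, was at 11.36 and 10.61 in CSC and 13.38 and 13.09 in TEC, so that CSC arrays also carried it, well above the fibroblasts. Its difference was 2.25 ± 0.6 (adjusted p 0.0134, or 0.0920 without CSC replicate 2). CSC replicate 2 was lower than CSC replicate 1 in the median of this list, at 9.25 against 10.25.

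Neutrophil genes were among the greatest differences. Of 14 measured, 12 were higher in TEC and none in CSC, with a median of 4.17. Both TEC arrays showed it, with medians of 4.43 and 3.92 and 12 called against each. Mmp8, neutrophil collagenase, stood at 6.91 and 5.62 in CSC and 12.44 and 11.4 in TEC. Camp, an antimicrobial peptide of neutrophil granules, stood at 8.5 and 7.77 in CSC and 13.53 and 12.93 in TEC. No CSC array came near the TEC arrays in either gene, and CSC replicate 1 was above replicate 2. The differences were 5.65 ± 0.43 and 5.09 ± 0.27 (adjusted p 1.84e-05 and 5.39e-06). Mmp8 in CSC was near the fibroblast arrays (4.38 to 6.56), so the size of its difference is uncertain. The receptors Cxcr2 and Csf3r differed by 4.78 ± 0.42 and 4.16 ± 0.41, and Ngp, another granule gene, by 4.19 ± 0.22. Ltf and Lcn2 were the exceptions, at 13.64 and 13.9 in CSC and 13.85 and 13.35 in TEC and at 14.17 and 14.12 in CSC and 14.12 and 13.87 in TEC; both are also made by milk-producing or inflamed epithelium, and neither was called. Among the 20 greatest differences in favour of TEC were further myeloid genes, Ifitm6, Wfdc21, Trem1, Trem3, Acod1, Il1r2 and Cyp4f18, with differences of 4.95 ± 0.29, 4.93 ± 0.35, 4.71 ± 0.39, 4.81 ± 0.38, 4.91 ± 0.61, 4.57 ± 0.58 and 5.01 ± 0.5. The rest of the 20 were Klra17, Slc2a3, Slfn1, Prok2, Samsn1, Pygl, Mmp9, Hdc, Siglecf and Pou2af1, between 4.56 and 5.38, of which Slc2a3 and Prok2 came to 2.95 and 2.9 as means over their probe sets.

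Dendritic cell genes were also higher in TEC, in 15 of 17 measured, with a median of 2.43. Ccl22, a chemokine of activated dendritic cells, was at 6.47 and 5.91 in CSC and 10.4 and 10.23 in TEC. Ccr7, the receptor that guides these cells to lymph nodes, was at 7.57 and 6.24 in CSC and 11.34 and 11.35 in TEC. The CSC arrays were nearer the fibroblasts (5.66 to 5.71 for Ccl22, 4.74 to 6.81 for Ccr7), and both TEC arrays were far above. Differences were 4.13 ± 0.16 for Ccl22, 4.44 ± 0.59 for Ccr7 and 2.66 ± 0.12 for Flt3, a receptor that dendritic cell precursors need (adjusted p 2.86e-06, 0.000303 and 3.68e-06). Xcr1, Itgae and Batf3 of cross-presenting cells differed by 2.36 ± 0.28, 3.03 ± 0.43 and 1.75 ± 0.16, and Cd209a of another subset by 2.37 ± 0.29. MHC class II genes were higher in TEC in 8 of 11, with a median of 1.21. H2-Eb1 was at 12.42 and 8.15 in CSC and 12.99 and 12.97 in TEC, so that CSC replicate 1 nearly matched TEC and CSC replicate 2 was far lower; it was not called (adjusted p 0.0542). H2-Aa and H2-Ab1, called over all arrays, lost their calls without CSC replicate 2 (differences 0.54 and 0.69, adjusted p 0.0690 and 0.184).

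Monocyte and inflammatory genes were higher in TEC in 18 of 19, with a median of 1.91. Il1b, an inflammatory cytokine, was at 12.27 and 11.28 in CSC and 14.35 and 14.1 in TEC, and Chil3, a chitinase-like protein, at 9.96 and 8.17 in CSC and 13.53 and 13.42 in TEC. The differences were 2.45 ± 0.27 and 4.41 ± 0.47, and Ccr2, which brings monocytes out of bone marrow, differed by 1.71 ± 0.27. Arg1 was the member not called. Of 25 chemokine ligands, 12 were higher in TEC and 3, Ccl20, Cx3cl1 and Cxcl17, were higher in CSC, by 0.94 ± 0.15, 0.83 ± 0.16 (0.52 as the mean over probe sets) and 0.6 ± 0.12. Ccl5 was higher in TEC by 3.61 ± 0.42 and Ccl3 by 2.43 ± 0.37.

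Macrophage genes were split between the groups. Of 18 core macrophage genes, 6 were higher in CSC and 7 higher in TEC. C1qa, C1qb and C1qc encode the chains of complement C1q, which macrophages make. C1qa was at 12.79 and 12.52 in CSC and 10.85 and 11.24 in TEC, C1qb at 12.2 and 11.87 in CSC and 10.47 and 10.74 in TEC and C1qc at 11.32 and 11.03 in CSC and 9.58 and 9.85 in TEC. In each, both CSC arrays were above both TEC arrays, and the differences were 1.61 ± 0.26, 1.43 ± 0.3 and 1.46 ± 0.18 (adjusted p 0.000846, 0.0037 and 0.000215). Mertk, a receptor for dying cells, was higher in CSC by 1.23 ± 0.18 (adjusted p 0.000476) and Cbr2 by 1.05 ± 0.18. Csf1r, the receptor that macrophages depend on, was at 12.53 and 12.25 in CSC and 12.73 and 12.4 in TEC, not called (adjusted p 0.669; 95% interval -0.84 to 0.5). Tyrobp, Fcer1g and Fcgr3, which neutrophils and other myeloid cells share, were higher in TEC by 2.07 ± 0.38, 1.89 ± 0.21 and 1.76 ± 0.24. Among 18 genes of tissue-resident macrophages, 6 were higher in CSC and 3 in TEC. The first count was 11 without CSC replicate 1, 2 without CSC replicate 2 and 3 without TEC replicate 1, and the second was 5 without CSC replicate 2. Cd163, a scavenger receptor of such cells, was at 8.56 and 9.68 in CSC and 7.34 and 8.18 in TEC, and its call ended without CSC replicate 2 (difference 0.8, adjusted p 0.0954).

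**Figure D4:**
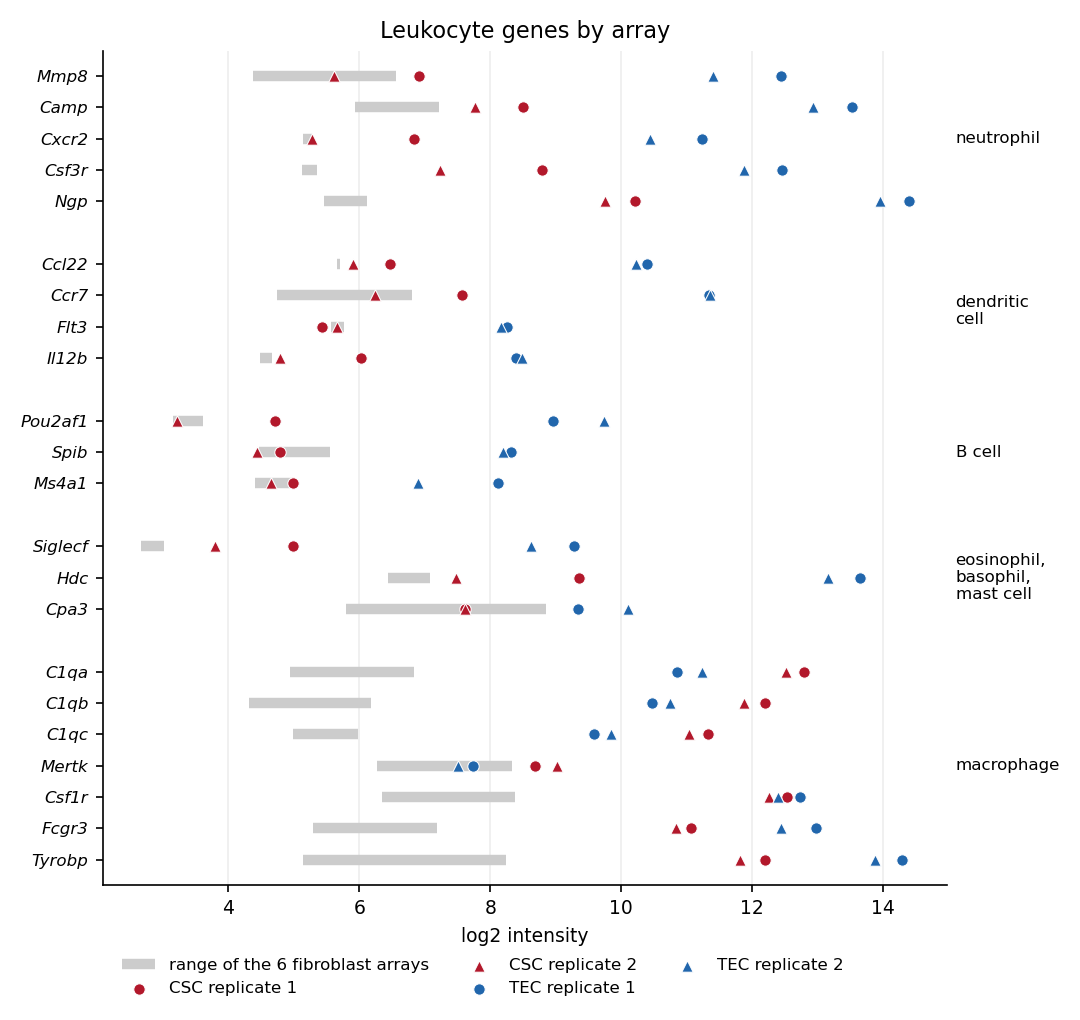
Log2 intensity of 22 leukocyte genes on each CSC (red) and TEC (blue) array, circles for replicate 1 and triangles for replicate 2, with grey bars for the range of the 6 fibroblast arrays. TEC lies to the right for the neutrophil, dendritic cell, B cell and granulocyte genes drawn. C1qa, C1qb, C1qc and Mertk lie to the right in CSC, and Csf1r overlaps. Of the full lists, 12 of 14 neutrophil and 15 of 17 dendritic cell genes were called higher in TEC, against 20.1% of all genes. So were 10 of 13 B and plasma cell genes and 11 of 16 mast cell, basophil and eosinophil genes. Xbp1 of the former and Gata2 of the latter were higher in CSC and are not drawn.

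Many lymphocyte and granulocyte genes were higher in TEC too. Of 13 B and plasma cell genes, 10 were higher in TEC, with a median of 1.5, and 1, Xbp1, was higher in CSC by 0.83 ± 0.13. Spib, a B cell and dendritic cell factor, was at 4.79 and 4.43 in CSC and 8.32 and 8.19 in TEC, a difference of 3.65 ± 0.16, and Pou2af1, a B cell coactivator, was at 4.71 and 3.21 in CSC and 8.95 and 9.73 in TEC, a difference of 5.38 ± 0.42. Ms4a1, which encodes CD20, was higher in TEC by 2.69 ± 0.35. The median of the T and NK cell genes was 6.07 and 5.06 in CSC and 6.39 and 6.2 in TEC. Both TEC values lay within the range of the fibroblast arrays, 5.33 to 6.54. Of 21 T and NK cell genes, 12 were higher in TEC, with a median of 0.58, but only 3 without CSC replicate 2. Cd3e was at 6.51 and 6.16 in CSC and 6.78 and 6.84 in TEC, below its fibroblast range of 7.25 to 8.15, and lost its call without CSC replicate 2 (difference 0.30, adjusted p 0.166); Cd4 and Foxp3 were not called. Among 16 genes of mast cells, basophils and eosinophils, 11 were higher in TEC, with a median of 1.37. Siglecf, an eosinophil receptor, was at 4.99 and 3.79 in CSC and 9.28 and 8.62 in TEC, a difference of 4.56 ± 0.35, and Cpa3, a mast cell protease, differed by 2.11 ± 0.35. Gata2, which both mast cells and epithelium express, was higher in CSC by 1.68 ± 0.14.

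Genes that promote or inhibit cell death, and genes of interferon and the mesenchymal state, were among those higher in TEC. Of 15 apoptosis genes measured, 10 were higher in TEC and none in CSC, with a median of 0.79 (1.15 for TEC replicate 1 and 0.44 for TEC replicate 2). Fas, a death receptor, was at 7.37 and 7.02 in CSC and 10.71 and 10.1 in TEC, a difference of 3.21 ± 0.26 (adjusted p 2.49e-05). Pmaip1, which promotes cell death, differed by 2.2 ± 0.33, and Birc3, which inhibits it, by 2.01 ± 0.23. Further inhibitors lay higher in TEC, with Birc2 by 1.43, Cflar by 1.33 and Bcl2l1 by 0.79. So did further promoters, with Bcl2l11 by 1.31 and Casp8 by 1.03. Counts of this list therefore do not separate death from survival. Of 19 interferon response genes 8 were higher in TEC, and none was higher in CSC with both TEC arrays (3 without TEC replicate 2). Psmb9, an immunoproteasome subunit, differed by 1.44 ± 0.11 and Mx1 by 1.3 ± 0.15. In the list of 21 mesenchymal genes and their regulators, 10 were higher in TEC, with a median of 1.22. It was 0.35 for TEC replicate 1, with 9 called, and 1.49 for TEC replicate 2, with 15 called. S100a4 was at 9.5 and 9.29 in CSC and 12.61 and 12.51 in TEC and Vim, vimentin, at 12.52 and 12.48 in CSC and 13.7 and 13.99 in TEC; the fibroblast arrays held Vim at 14.35 to 14.41. Their differences were 3.16 ± 0.41 and 1.34 ± 0.11 (adjusted p 0.000276 and 2.61e-05). The list also holds epithelial regulators, and the 5 members higher in CSC were Snai2, Grhl2, Ovol1, Esrp1 and Esrp2. Grhl2 was higher by 2.35 ± 0.11, or 0.43 as the mean over its probe sets, and Snai2, a basal cell factor, was at 8.06 and 7.17 in CSC and 4.67 and 6.55 in TEC, called with all arrays (difference 2.0) but not without CSC replicate 1 (adjusted p 0.0707), and 1.06 against TEC replicate 2 alone. Leukocyte genes were also higher in TEC, but their median excess over CSC fell from 2.41 on TEC replicate 1 to 1.95 on TEC replicate 2. Between the same arrays the apoptosis median fell too, whereas the interferon median rose from 0.42 to 0.67 and the mesenchymal median also rose. The fibroblast median rose as well, from 0.31 to 2.91. The part of leukocyte or fibroblast genes in these lists was not tested.

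The TEC arrays differed from each other more than any other replicate pair. The standard deviation of the gene differences between the TEC arrays was 0.55, against 0.37 between the CSC arrays and 0.14 to 0.36 between pairs of CAF or of COF arrays. TEC replicate 2 was higher than replicate 1 by at least 1 for 640 genes (5.16%), and the reverse held for 53 (0.428%). Within TEC these are values of single arrays and were not tested. All 19 fibroblast genes were among the 640, with a median of 2.55 between the arrays. Pdgfra, the platelet-derived growth factor receptor that marks fibroblasts, was at 6.55 and 6.43 in CSC and 7.02 and 9.8 in TEC, against 12.26 to 12.62 on the fibroblast arrays. Col1a1, a collagen chain, was at 9.66 and 9.2 in CSC and 9.63 and 12.55 in TEC. TEC replicate 1 was close to CSC in both genes, and TEC replicate 2 lay below the fibroblasts in Pdgfra and within their range of 11.54 to 12.76 in Col1a1. Pdgfra was called (adjusted p 0.0399), but not with any of 8 single arrays left out (adjusted p 0.137 without CSC replicate 2), and Col1a1 was not called (adjusted p 0.0937).

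The call for fibroblast genes thus depended on the array. With both TEC arrays 9 of 19 were called higher in TEC; with TEC replicate 1 alone it was 6, with TEC replicate 2 alone all 19, and without either CSC array it was 1. The median TEC minus CSC difference was 0.31 for TEC replicate 1 and 2.91 for TEC replicate 2. Among 21 metalloproteases and their inhibitors, 7 were higher in TEC with both arrays and 14 with TEC replicate 2 alone, and 4 without CSC replicate 2. Mmp9 and Adam8, which leukocytes express, were high on both TEC arrays, at 11.96 and 11.18 and 13.11 and 12.47, and differed from CSC by 4.59 ± 0.46 and 2.91 ± 0.24. Mmp2, a fibroblast gene, was at 8.23 and 8.23 in CSC and 8.47 and 11.14 in TEC and was not called.

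**Figure D5:**
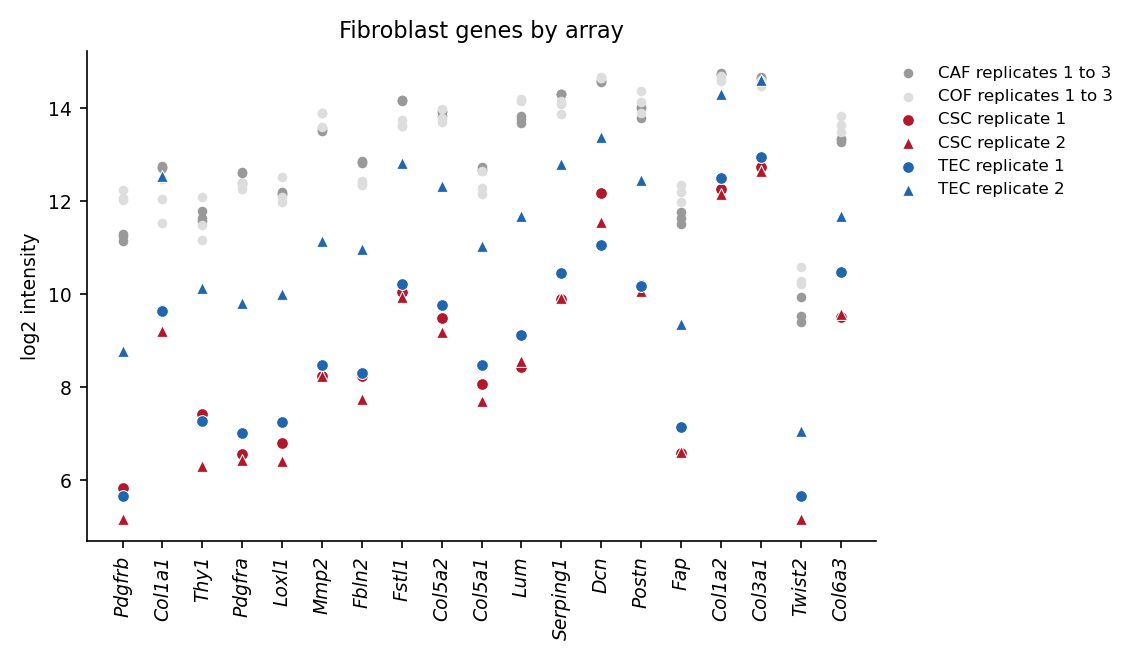
Log2 intensity of the 19 fibroblast genes on all 10 arrays, ordered by TEC replicate 2 minus TEC replicate 1; red is CSC, blue is TEC (circle replicate 1, triangle replicate 2), dark grey is CAF and light grey is COF. TEC replicate 1 lies near CSC and TEC replicate 2 lies above it in all 19 genes.

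The 10 genes with the greatest excess on TEC replicate 2 included immunoglobulin and matrix genes. Igk, an immunoglobulin light chain, was at 7.68 and 5.81 in CSC and 8.95 and 12.65 in TEC, and a variable segment gene of the same locus was also among the 10. Ogn and Aspn, small proteoglycans, were at 6.05 and 9.67 and 5.69 and 9.16 in TEC. The salivary gene Bpifa2 was also among the 10, and the others were Adamts5, Islr, Mndal, Ndn and Rarres2. In the other direction, TEC replicate 1 exceeded replicate 2 most in Foxd4 (5.94 and 3.87), Mpp7 (10.73 and 8.97), Gsap and Lhx1, with Aim2, Gdap10, Ighv14-2, Itga8, Mybph and Tnfrsf23 completing the 10. Against each TEC array alone, 63 genes were called in opposite directions. Grb10, a growth factor adaptor, was at 8.51 and 8.58 in CSC and 6.7 and 9.53 in TEC. Has2, which makes hyaluronan, was at 7.2 and 6.02 in CSC and 5.38 and 7.96 in TEC. In both, the CSC arrays lay between the TEC arrays; these genes were picked after their values were seen.

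Further lists were split between the groups or moved with single arrays. Endothelial genes lay below the fibroblast arrays (5.85 to 6.38) on all 4 arrays, with medians of 5.38 and 5.24 in CSC and 5.67 and 5.72 in TEC; 8 of 18 were called higher in TEC, and 4 without CSC replicate 1. Immediate early genes, which respond to cell handling as well as to growth factors, were split, with 8 of 21 higher in CSC (5 without TEC replicate 1) and 6 higher in TEC. Jun was at 13.09 and 13.22 in CSC and 12.26 and 12.32 in TEC and Dusp1 at 13.22 and 13.11 in CSC and 14.32 and 14.15 in TEC, in opposite directions. Of 20 secretory pathway and stress genes, 7 were higher in CSC (3 without TEC replicate 1, 4 without CSC replicate 1) and 3 in TEC. Of 23 secreted cytokines, 9 were higher in TEC (5 without CSC replicate 2) and 3 in CSC. Among antimicrobial and acute phase genes 6 of 18 were higher in CSC and 7 in TEC. Saa2, an acute phase protein, was at 13.83 and 13.79 in CSC and 11.19 and 11.35 in TEC, higher in CSC by 2.54 ± 0.33, while Slpi, a protease inhibitor, was higher in TEC by 2.52 ± 0.28. Of 20 keratins 8 were higher in CSC and 4 in TEC, of 23 DNA replication genes 6 and 2, and of 21 chromatin and Polycomb genes 7 and 2 (5 without TEC replicate 2). Of 14 pericyte and smooth muscle genes 2 were higher in CSC and 1 in TEC, of 11 adipocyte genes 2 and 3, and of 7 red cell and platelet genes 0 and 2. Of 8 salivary genes 5 were higher in CSC with all arrays and 1 without CSC replicate 2. Over all 54 lists, 8 of 44 counts above 5 moved by more than 1.5 times when a single array was left out, and each is given above; of 47 counts of 1 to 5, 35 did so.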

How the data were processed

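Each of the 10 samples was hybridised to 1 Affymetrix mouse array, and the deposited values are log2 intensities. RMA is the tool listed in the submitters' processing notes; it subtracts background, forces arrays to a common distribution and summarises probes, so a shift shared by most genes is not seen. Array medians lay between 6.89 and 7.02, and the number of arrays limits the precision. Of 22690 probe sets, 20393 had a single symbol in the platform annotation, 691 had several and 1606 had none. Probe sets with a single symbol were kept, 1 per gene by the highest mean, giving 12394 genes, of which 12370 matched the RefSeq table. limma 3.58.1 (R 4.3.3) fitted group means over all 10 arrays with 6 residual degrees of freedom, and p-values were adjusted by Benjamini-Hochberg over all genes and called under 0.05. The fit was tested on simulated data. Alternatives changed the arrays fitted, the replicate block, the prior, array weights, the filter, the probe set rule, the scaling and the threshold.

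Members and the 54 gene lists were chosen with earlier results of these data known. Genes named are the 20 greatest differences each way, the first 3 and up to 6 with the smallest adjusted p of each list, and the 10 greatest differences between TEC arrays each way. Chosen after their values were seen were Acta2, Arg1, C1qb, Ccl20, Ccr7, Cd14, Cd209a, Cd4, Chil3, Cldn8, Cnn1, Cx3cl1, Cxcl17, Dkk1, Dsc3, Dsg2, Dsp, Elovl5, Ets1, Foxc1, Foxp3, Grb10, Grb2, Has2, Itgae, Itgb3, Krt18, Krt6a, Krt6b, Lgr5, Ltf, Myc, Myh11, Mylk, Notum, Ocln, Ovol1, Oxtr, Pdpn, Plec, Procr, Rab25, Sp5, Tcf4, Tfap2a, Tyrobp and Xcr1.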

Additional observations from a re-analysis of the deposited data

How the results depend on the processing

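Counts of calls depended most on which arrays gave the estimate of the spread. With the 4 CSC and TEC arrays alone, 3013 genes were called, 1802 higher in CSC and 1211 higher in TEC, and 92 of 361 called named genes were lost. Leaving out single arrays gave 4417 to 6039 genes called, 2596 to 3408 higher in CSC, 1821 to 2756 higher in TEC, and 1987 to 2707 that differed by at least 1; the lowest total came without CSC replicate 2. Of the 361 called named genes, 296 kept their call with every array left out in turn. An adjusted p under 0.01 left 1627 genes higher in TEC. The CSC minus TEC difference of Egfr reversed without TEC replicate 1 (-0.63, adjusted p 0.0102 by limma) and was 1.56 without TEC replicate 2. That of Fgfr1 reversed without TEC replicate 2 (0.61, adjusted p 0.0197 by limma) and was -0.76 without TEC replicate 1; the cause was not tested. Centring each array on its median gave 2937 genes higher in CSC and 2939 higher in TEC. The deviations of same-numbered CSC and TEC arrays correlated at -0.057. A single correlation over all genes cannot decide whether the replicate numbers pair the samples. From replicate 1 to replicate 2 the median change of the pan-leukocyte genes was -0.53 in CSC and -0.44 in TEC. That of the fibroblast genes was -0.12 in CSC and 2.55 in TEC. With the replicate number as a block, 5365 genes were called over all arrays, and over the 4 arrays alone the replicate block left 1837, with 993 higher in CSC and 844 higher in TEC. With 2 arrays a group, the differences rest on few samples, dim probe sets give compressed differences, and levels of different genes cannot be compared on these arrays.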
